A study of Mus musculus with 18 samples.

Results

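The genes described here are 5 genes whose protein products are used to recognise horizontal cells in the retina, namely Lhx1, Onecut1, Onecut2, Calb1 and Prox1. They are the rows of the count table that carry these symbols. All 5 were found among the 35006 gene names of the table, and all 5 were among the 16183 genes with enough reads to be tested. RNA was taken from whole retinas of male mice in 4 groups. The WT group (3 libraries) was C57BL/6J mice on plain water, and the WT + NACET group (6 libraries) was the same strain whose water held 0.33 mg/mL of NACET (N-acetyl-L-cysteine ethyl ester, a cell-permeable form of cysteine), which gave 50 mg/kg/day. The Akita group (4 libraries) was C57BL/6-Ins2Akita/J mice, which carry a mutant insulin 2 gene and become diabetic, on plain water, and the Akita + NACET group (5 libraries) was the same strain on the same dose. Treatment ran from 4 to 24 weeks of age. The study asked whether NACET alters the retina of diabetic mice, and the comparisons below follow its 2 factors, genotype and NACET. The labels give the libraries of a group as separate samples and do not say how the mice relate to each other, so the p-values measure only the spread between these samples.

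Horizontal cells are inhibitory interneurons of the outer retina. They receive input from rods and cones and feed a signal back to photoreceptor terminals, which sharpens contrast between neighbouring parts of the image. Lhx1, Onecut1, Onecut2 and Prox1 are transcription factors that act in the formation and upkeep of these cells, while Calb1 encodes calbindin, a calcium buffer that fills their cell bodies and processes. Most of the 5 are not restricted to horizontal cells in the mouse. Prox1 is also known from bipolar cells and AII amacrine cells, Calb1 from amacrine and ganglion cells, and the Onecut factors from ganglion cells. Whether Lhx1 is restricted to them was not tested here. Horizontal cells are a minor population of the retina. In RNA from the whole tissue a lower level can stand for fewer such cells, for less RNA per cell or for a larger share of RNA from other cells. It can also stand for a change in other cells that express the gene, and these readings cannot be told apart. The defining horizontal cell connexin Gja10 was detected in every library, with 11 to 44 reads.

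The promoters of Lhx1, Onecut1 and Prox1 are shown because only these 3 of the 5 members had an entry in the RefSeq promoter table. An entry gives 250 bases before to 50 bases after the start of transcription on build GRCm38.p6. Coordinates of this build differ from those of mm9, which are used for the counted genes. Onecut2 and Calb1 are named only. Capitals mark matches, on either strand, to 5 short motifs: the GC box GGGCGG, the CCAAT box CCAAT, the TATA box TATAAA, the Onecut core ATTGAT and the LIM homeodomain core TAATTA. The windows were chr11:84525485-84525784 (minus strand) for Lhx1, chr9:74861671-74861970 (plus strand) for Onecut1 and chr1:190170778-190171077 (minus strand) for Prox1. Prox1 had a second entry, chr1:190169466-190169765 (minus strand), which is described and not printed.
Lhx1: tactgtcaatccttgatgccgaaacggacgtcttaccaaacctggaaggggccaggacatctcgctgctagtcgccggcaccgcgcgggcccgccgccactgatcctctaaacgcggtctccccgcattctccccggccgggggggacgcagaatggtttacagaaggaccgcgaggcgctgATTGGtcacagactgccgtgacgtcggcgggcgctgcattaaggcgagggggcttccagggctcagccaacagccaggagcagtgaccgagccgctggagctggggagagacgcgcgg
Onecut1: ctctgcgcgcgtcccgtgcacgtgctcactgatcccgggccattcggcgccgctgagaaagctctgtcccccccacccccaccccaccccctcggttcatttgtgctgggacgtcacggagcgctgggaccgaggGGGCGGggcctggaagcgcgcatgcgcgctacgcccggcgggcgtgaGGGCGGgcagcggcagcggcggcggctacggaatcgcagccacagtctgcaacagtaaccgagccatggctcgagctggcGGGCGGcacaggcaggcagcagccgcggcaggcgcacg
Prox1: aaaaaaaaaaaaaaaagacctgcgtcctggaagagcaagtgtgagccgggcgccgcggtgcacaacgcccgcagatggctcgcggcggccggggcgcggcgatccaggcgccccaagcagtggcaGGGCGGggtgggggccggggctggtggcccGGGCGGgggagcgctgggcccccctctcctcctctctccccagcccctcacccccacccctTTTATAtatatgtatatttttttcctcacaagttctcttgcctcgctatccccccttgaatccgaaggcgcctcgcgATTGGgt

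All 3 windows were rich in G and C, at 65.7% for Lhx1, 73% for Onecut1 and 64.3% for Prox1. The Onecut1 window held 3 GC boxes, which began at positions -115, -68 and 12 relative to the start site, counted as position 0. The printed Prox1 window held 2 GC boxes (-125 and -95), a TATA box on the opposite strand (-34) and a CCAAT box on the opposite strand (43), and the Lhx1 window held 1 CCAAT box, on the opposite strand (-68). A GC box was present in 35.7% of 32851 promoter windows of this length, a CCAAT box in 37.4% and a TATA box in 13.6%. Neither the Onecut core, found in 7.54% of all windows, nor the LIM homeodomain core, found in 5.29%, occurred in these 3 windows. The second Prox1 window, 57.3% G and C, held 1 GC box (-58) and no match to the other motifs. The printed windows of Lhx1 and Prox1 each held a CCAAT match, at different distances from the start, and the second Prox1 window held none. The motif matches describe letters in these windows and do not show that a factor binds there.

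Gene counts per library ranged from 11495596 to 17814479. The share of uniquely aligned reads outside annotated exons was 16.3% ± 1.24 (SD, n = 3) in WT, 12.7% ± 2.74 (n = 6) in WT + NACET, 11.5% ± 1.83 (n = 4) in Akita and 16.4% ± 2.1 (n = 5) in Akita + NACET. The Akita libraries (9.67 to 13.3%) did not overlap those of WT (14.9 to 17.1%) or of Akita + NACET (14.3 to 19.8%), so this share moved with the groups. Lens genes also varied from library to library, the sum of 7 lens markers running from 1.59 to 22033 CPM (read counts scaled to a common library total, the usual CPM unit), with the highest value in WT + NACET, and the sum of 6 pigment epithelium markers ran from 61.3 to 1500 CPM. The pigment epithelium markers had a median log2 difference of -1.36 in Akita vs WT (0 of 6 higher) and 1.83 in Akita + NACET vs Akita (6 of 6 higher), with none called by edgeR, and their part in the results was not tested. Both are neighbouring tissues of the eye.

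Calb1 was the most abundant member on the scale of RPKM (CPM divided by the kilobases of exon in which reads could be counted), which allows genes to be compared. Its level lay between 15.6 and 38.2 RPKM over the 18 libraries. Prox1 followed with 5.45 to 21.3 RPKM, and the ranges of these 2 genes overlapped. Lhx1 (0.317 to 1.30 RPKM), Onecut1 (0.187 to 1.10 RPKM) and Onecut2 (0.276 to 0.604 RPKM) lay lower, and their ranges overlapped each other, so the data give no order among these 3 transcription factors. The same separation held in each group by the group means: Calb1 first, Prox1 second and the other 3 below. In reads, Calb1 had 911 to 2803 per library and Prox1 347 to 1304, while Onecut2 had 53 to 166, Lhx1 19 to 82 and Onecut1 5 to 25. Counting error alone is therefore large for Onecut1.

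**Figure D1:**
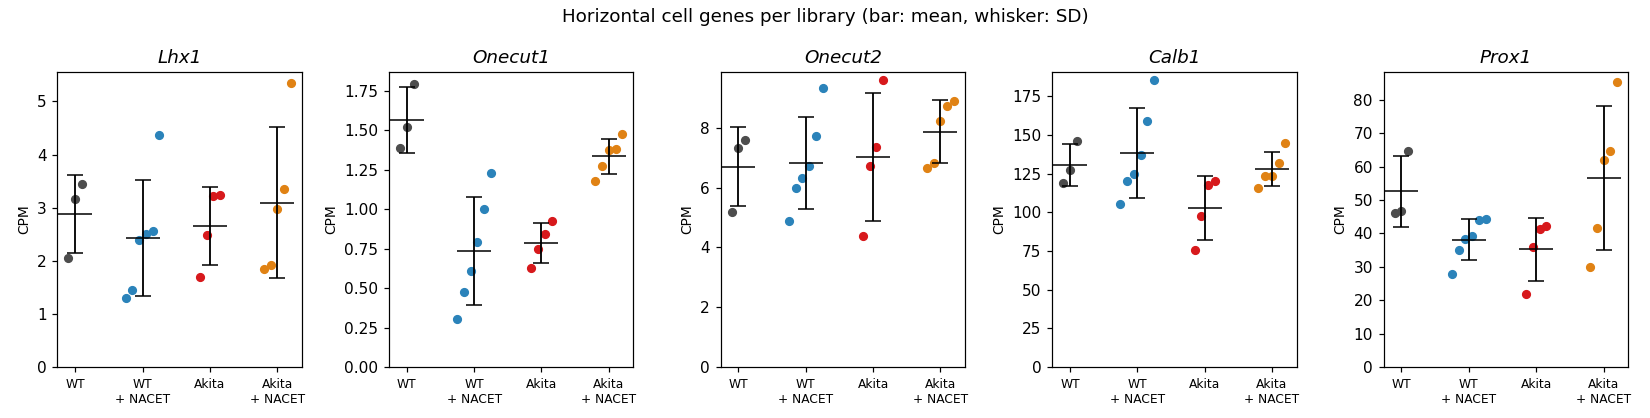
Level of each of the 5 genes (vertical axis, CPM from 0, a separate scale for each gene) in the 18 libraries by group. Points are libraries, horizontal bars group means and whiskers SD. Onecut1 in WT and in Akita + NACET lies at 1.18 CPM or more in all 8 libraries, and in Akita at 0.926 CPM or less in all 4.

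Onecut1 (mm9 chr9:74709728-74737591, plus strand) encodes a cut-homeodomain factor that acts early in the choice of the horizontal cell fate. The 3 WT libraries had 1.80, 1.52 and 1.38 CPM and the 4 Akita libraries 0.842, 0.926, 0.628 and 0.746 CPM. The groups did not overlap. With NACET, the 5 Akita libraries had 1.38, 1.47, 1.28, 1.18 and 1.37 CPM, all above the Akita libraries on plain water. The 6 WT + NACET libraries had 0.307 CPM at the lowest, 0.701 at the median and 1.23 at the highest, all below the WT libraries. The fitted differences were -0.98 ± 0.34 (log2, SE) for Akita vs WT, 0.76 ± 0.30 for Akita + NACET vs Akita and -1.09 ± 0.31 for WT + NACET vs WT, with edgeR adjusted p of 0.0731, 0.108 and 0.0722. None of these passed the threshold of 0.05. Thus Onecut1 had a lower mean with NACET in WT retinas and a higher mean with NACET in Akita retinas, and the difference between those responses, the interaction of genotype with NACET, was 1.85 ± 0.43 on the log2 scale (edgeR, adjusted p = 0.00819). Between the treated groups, Onecut1 was higher in Akita + NACET than in WT + NACET by 0.87 ± 0.27 (adjusted p = 0.0402), although the lowest Akita + NACET library (1.18 CPM) lay under the highest WT + NACET library.

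The interaction of Onecut1 passed the threshold without any of the 18 libraries in turn, at 1.69 to 2.05. The call between the treated groups was less stable. It was lost without Akita + NACET replicate 1 (adjusted p = 0.0627), 2 (0.0799), 4 (0.0583) or 5 (0.0893), and without WT + NACET replicate 1 (0.0644), 3 (0.0832), 4 (0.0532) or 5 (0.0880), with log2 differences of 0.70 to 0.91 in these fits. For the response of WT retinas, the reverse was seen: without WT + NACET replicate 6, the highest library of its group, the difference was -1.29 and passed (adjusted p = 0.0384).

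By the mm9 annotation read here, the counts of Onecut1 come from part of the gene only. In the mm9 annotation its last exon (chr9:74737113-74737591, 479 of 2116 exon bases) lies inside the last exon of the noncoding gene model Gm16551, which is on the same strand and runs 1691 bases further downstream. Gm16551 (chr9:74696244-74739282) also starts before Onecut1, so it spans the whole gene, and these 479 bases are the exon bases they share. The study's methods do not name the annotation used for counting, and the one read here held 33643 of the 35006 gene names. If the exons were the same, reads wholly in the shared bases were ambiguous and counted for neither gene. This leaves 1637 bases of Onecut1. Gm16551 had 5.83 ± 0.90 CPM in WT, 3.99 ± 1.55 in WT + NACET, 5.78 ± 1.59 in Akita and 6.15 ± 2.27 in Akita + NACET (SD), so its mean was low in WT + NACET but not in Akita, where its difference from WT was -0.01 ± 0.33 (edgeR, adjusted p = 0.985). When the reads of both gene models were summed, an alternative added after the data had been seen, the level was 7.39 ± 0.80 CPM in WT, 4.73 ± 1.79 in WT + NACET, 6.56 ± 1.70 in Akita and 7.48 ± 2.30 in Akita + NACET. The interaction was then 0.83 with an adjusted p of 0.124, and the difference between the treated groups was 0.66 with an adjusted p of 0.0699, so neither call remained. Whether the reads of Gm16551 belong to the Onecut1 transcript cannot be told from counts per gene.

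**Figure D2:**
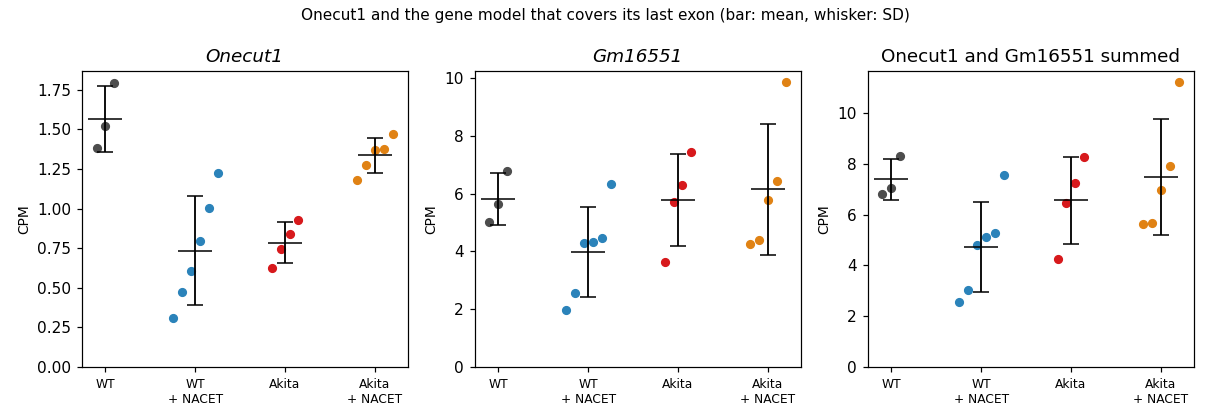
Level in CPM (vertical axes from 0, different scales) of Onecut1, of Gm16551 and of their summed reads in the 18 libraries by group, with points for libraries, bars for means and whiskers for SD. The Akita group is low for Onecut1 (0.786 ± 0.128) and not for Gm16551 (5.78 ± 1.59) or the sum (6.56 ± 1.70).

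Onecut2, the paralog of Onecut1 that acts with it (mm9 chr18:64500002-64560641, plus strand), gave no difference past the threshold in any of the 6 comparisons. WT libraries had 7.32, 5.20 and 7.59 CPM, Akita libraries 7.36, 9.61, 6.72 and 4.39 CPM, and Akita + NACET libraries 8.89, 8.72, 8.23, 6.84 and 6.66 CPM. In WT + NACET the lowest, median and highest values were 4.88, 6.52 and 9.34 CPM. All groups overlapped, and the largest fitted difference was 0.23 ± 0.22 (Akita + NACET vs WT, edgeR adjusted p = 0.9996). For Akita vs WT the difference was 0.07, with a 95% interval of -0.38 to 0.52.

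Lhx1 (mm9 chr11:84331479-84338923, minus strand), a LIM-homeodomain factor needed for horizontal cells to settle in their own layer, spread widely inside every group. WT libraries had 3.16, 3.44 and 2.05 CPM and Akita libraries 3.23, 3.24, 1.70 and 2.49 CPM. Akita + NACET libraries had 1.93, 3.36, 1.85, 2.98 and 5.36 CPM, and WT + NACET libraries ran from 1.31 over a median of 2.45 to 4.36 CPM. The 4 groups overlapped, and no comparison passed (edgeR adjusted p of 0.450 or more). For Akita vs WT the interval of the log2 difference was -0.87 to 0.66.

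Prox1 (mm9 chr1:191945660-191994559, minus strand) encodes a homeobox factor required for horizontal cells to form. WT libraries had 46.7, 64.8 and 46.2 CPM and Akita libraries 41.4, 42.2, 21.8 and 35.9 CPM. Every Akita library lay below every WT library. Akita + NACET libraries had 29.9, 61.9, 41.6, 64.6 and 85.2 CPM, a spread that overlapped the Akita libraries, and WT + NACET libraries ran from 27.9 over a median of 38.8 to 44.2 CPM, below all WT libraries. The fitted differences were -0.57 ± 0.29 for Akita vs WT (edgeR, adjusted p = 0.209), 0.68 ± 0.26 for Akita + NACET vs Akita (0.0930), -0.46 ± 0.26 for WT + NACET vs WT (0.338) and 0.57 ± 0.23 for Akita + NACET vs WT + NACET (0.1001), none past the threshold. As for Onecut1, the means moved in opposite directions with NACET in the 2 genotypes. The interaction was 1.15 ± 0.37 (edgeR, adjusted p = 0.0373).

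This interaction of Prox1 passed in 9 of the 18 fits that left out a library. It was lost without Akita replicate 3 (0.97, adjusted p = 0.0621) or 4 (1.15, 0.0603), Akita + NACET replicate 2 (1.11, 0.0590), 4 (1.09, 0.0579) or 5 (0.95, 0.0645), WT replicate 1 (1.22, 0.0620) or 2 (0.97, 0.107), and WT + NACET replicate 3 (1.07, 0.0585) or 5 (1.12, 0.0556). Leaving out Akita + NACET replicate 1, the lowest library of its group, raised the difference from Akita to 0.84 and from WT + NACET to 0.73, and both then passed (edgeR, adjusted p = 0.0281 and 0.0260). Of the Prox1 exon bases, 133 of 4133 are shared with the antisense gene model Gm17566. The counting ignored strand, so by the mm9 annotation reads wholly in the shared part were ambiguous and counted for neither gene. This leaves 4000 bases of Prox1.

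Calb1 (mm9 chr4:15808411-15835211, plus strand) is the calcium buffer calbindin and no transcription factor. WT libraries had 146, 119 and 127 CPM and Akita libraries 118, 120, 97.4 and 75.5 CPM. Akita + NACET libraries had 116, 123, 132, 123 and 144 CPM, and WT + NACET libraries ran from 105 over a median of 131 to 185 CPM. The Akita group had the lowest mean, but its highest libraries reached the range of WT and of Akita + NACET. The differences were -0.35 ± 0.17 for Akita vs WT (edgeR, adjusted p = 0.182) and 0.32 ± 0.15 for Akita + NACET vs Akita (0.158), and the interaction was 0.23 ± 0.21 (0.451). None passed. Without Akita replicate 4, the lowest library, these values were -0.23, 0.20 and 0.11.

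**Figure D3:**
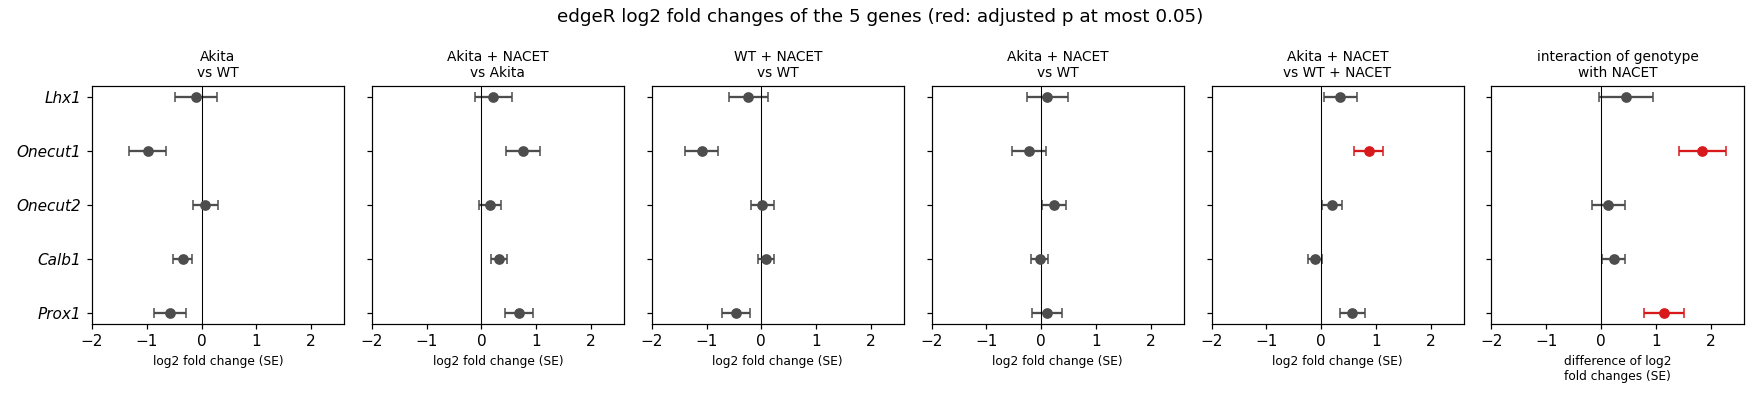
Fitted differences (horizontal axes, log2 scale, SE as whiskers) of the 5 genes (rows) in the 6 comparisons (panels), in red where the edgeR adjusted p was at most 0.05. Onecut1 passed in Akita + NACET vs WT + NACET (0.87) and in the interaction (1.85), and Prox1 in the interaction (1.15).

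Counted over the 5 members, Akita vs WT gave 0 calls by edgeR and 0 by DESeq2, a second count test (Onecut1 received no adjusted p from DESeq2 there). Over all genes tested, edgeR called 7.64% in this comparison, and DESeq2 called 2086 genes in all. At an unadjusted p under 0.05 there were 2 members, Onecut1 and Calb1, against 27% of all genes, and the libraries of 2 members, Onecut1 and Prox1, did not overlap between the groups, against 23.2% of all genes. The median difference of the members was -0.35, beside -0.01 over all genes, and 1 of the 5 members had a positive difference, against 48.4% of all genes. Some lists of other retinal cells also had negative medians, -0.37 for 10 ganglion cell markers (0 of 10 higher) and -0.59 for 8 amacrine cell markers (0 of 8). The median was -0.33 for 7 Müller glia markers (0 of 7) and -0.25 for 9 bipolar cell markers (2 of 9). Photoreceptor lists went the other way, at 0.47 for 7 rod markers (7 of 7 higher) and 0.25 for 6 cone markers (5 of 6).

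Akita + NACET vs Akita also gave 0 calls by edgeR, where 9.65% of all genes were called, and 1 by DESeq2 (Prox1, adjusted p = 0.0324), which called 2368 genes in all. At an unadjusted p under 0.05 there were 3 members, Onecut1, Calb1 and Prox1, against 29% of all genes, and Onecut1 did not overlap, as did 14.1% of all genes. All 5 members had higher means with NACET, against 49.6% of all genes, with a median of 0.32 beside 0.00 over all genes. Other inner retinal lists also rose: 8 of 8 amacrine (median 0.36), 9 of 10 ganglion (0.26) and 8 of 9 bipolar cell markers (0.18) were higher. Of the Müller glia markers 4 of 7 were higher (0.02), of the rod markers 0 of 7 (-0.39) and of the cone markers 2 of 6 (-0.48). This comparison and Akita vs WT share the Akita libraries.

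In WT + NACET vs WT edgeR called 0 members (1.48% of all genes), 1 member (Onecut1) reached an unadjusted p under 0.05 (19.5% of all genes), and DESeq2 called 1 (Onecut1, adjusted p = 0.0437) among 713 genes in all. Onecut1 and Prox1 did not overlap between these groups, against 11.5% of all genes. Akita + NACET vs WT had 0 members called by edgeR, 0 at an unadjusted p under 0.05 and 0 without overlap. Of all genes, 0.00618%, 4.63% and 4.17% did. DESeq2 called 0 members there among 11 genes in all. Here the member differences lay between -0.23 (Onecut1) and 0.23 (Onecut2). In Akita + NACET vs WT + NACET 1 of the 5 members was called, and higher (Onecut1), against 13.3% of all genes called and 6.01% called higher, and 0 members were without overlap, against 8.01%. DESeq2 added Prox1 (adjusted p = 0.0426) and called 2784 genes in all. The interaction had 2 of 5 called, both positive, where 20.3% of all genes were called and 10.1% were positive calls. DESeq2 called the same 2 members among 3820 genes in all.

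The outside-exon share of reads moved with these results. When it was added to the fit as a covariate, the interaction of Onecut1 was 1.74 ± 0.64 (edgeR, adjusted p = 0.453) and that of Prox1 0.25 ± 0.46 (0.904), and neither was called. The fit with the covariate called 17 genes in all in the interaction, 0 in Akita vs WT and 0 in Akita + NACET vs Akita. Without the covariate, the interaction was 1.85 ± 0.43 for Onecut1 and 1.15 ± 0.37 for Prox1. The share differed between the groups, so the covariate fit cannot fully separate it from genotype and NACET. Within groups, Prox1 had r = 0.58 and rho = 0.54 with this share over the 18 libraries (permutation test, adjusted p = 0.0637 and 0.0811 over 5 genes), r = 0.46 without the 2 libraries farthest from the median. Lhx1 had r = 0.50 and rho = 0.53 (adjusted p = 0.195 and 0.122 by permutation) and r = 0.39 without them. Onecut1 had r = 0.06 and rho = 0.30 within groups, and r = 0.56 and rho = 0.69 when the group means were left in. Onecut2 (r = -0.06, rho = -0.03) and Calb1 (r = 0.00, rho = 0.03) stood near the median r of all tested genes, 0.02, and 90.9% of all tested genes had a lower r than Prox1.

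**Figure D4:**
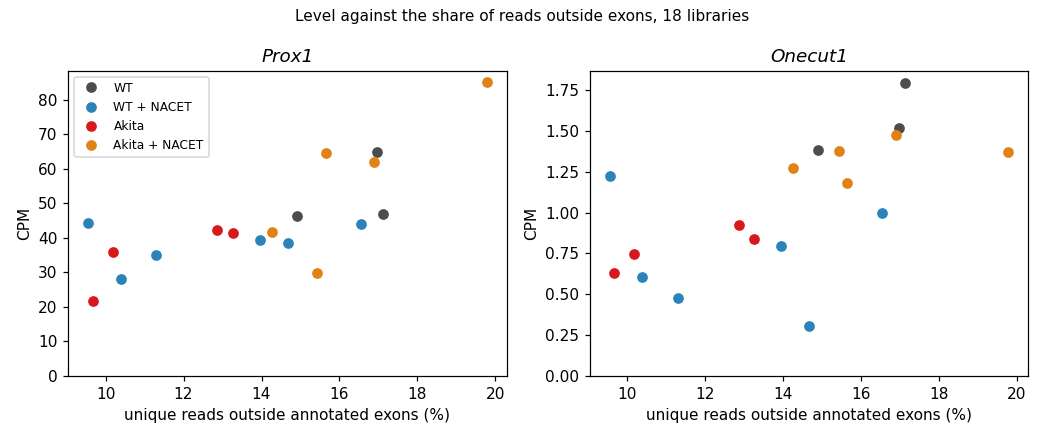
Level of Prox1 and Onecut1 in CPM (vertical axes from 0) against the percentage of unique reads outside annotated exons (horizontal axes) in the 18 libraries, coloured by group. Akita libraries lie at 9.67 to 13.3%, with 21.8 to 42.2 CPM of Prox1 and 0.628 to 0.926 CPM of Onecut1. Akita + NACET replicate 5, at 19.8%, has the highest Prox1 level (85.2 CPM). WT + NACET replicate 6, at the lowest share (9.55%), has the highest levels of its group for both genes (44.2 and 1.23 CPM).

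Markers of other retinal cells moved as well. In Akita vs WT, 5 of 8 amacrine cell markers were called lower and 3 of 7 rod markers were called higher (edgeR, 7.64% of all genes called). In the interaction, with 20.3% of all genes called and 10.1% called positive, 3 of 8 amacrine markers were called positive. There, 6 of 7 rod markers were called negative. Of the AII amacrine markers, 2 of 4 were called lower in Akita vs WT and 1 was called positive in the interaction. Of the bipolar cell markers 0 of 9 and of the ganglion cell markers 0 of 10 passed in these comparisons. The ganglion cell markers had medians of -0.37 in Akita vs WT and 0.34 in the interaction (10 of 10 positive), and the bipolar cell markers of -0.25 and 0.35 (8 of 9 positive), beside -0.35 and 0.46 for the 5 members. No marker of these lists was at 0 in all libraries. The summed level of the 4 AII markers was 187 to 236 CPM in WT, 177 to 198 in WT + NACET, 167 to 192 in Akita and 185 to 233 in Akita + NACET, and that of the 9 bipolar markers was 657 to 893, 506 to 771, 429 to 709 and 568.4 to 915 CPM in the same order. The part of these cells in the levels of Prox1 and Calb1 was not tested.

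Within groups, after the group mean had been subtracted, Lhx1 and Prox1 varied together over the 18 libraries, with r = 0.82 and rho = 0.80 (permutation test within groups, adjusted p = 0.0006 and 0.0014 over 10 pairs of members). Without WT + NACET replicates 5 and 6, the libraries farthest from the median of Lhx1, r was 0.91. Akita + NACET replicate 5 was the highest library of all 18 for both genes, and Akita replicate 3 was the lowest of its group for both. Lhx1 and Onecut1 had rho = 0.69 (adjusted p = 0.0248 by permutation) but r = 0.52 (0.143), and r was 0.27 without WT + NACET replicates 5 and 6. Of the other 8 pairs none passed by r or rho. Onecut1 and Calb1 came nearest by r at 0.67 (permutation, adjusted p = 0.0855), which fell to 0.35 without the 2 farthest libraries, and the paralogs Onecut1 and Onecut2 had r = 0.39 (0.224). The libraries share depth and the composition of the dissected tissue, and their part in these relations was not tested.

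**Figure D5:**
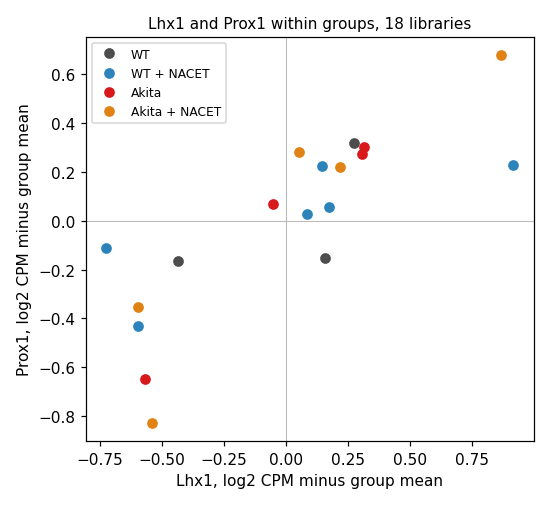
Deviation of Lhx1 (horizontal axis) and of Prox1 (vertical axis) from the mean of the group, in log2 CPM, for the 18 libraries coloured by group. The points rise together (r = 0.82), with Akita + NACET replicate 5 at the upper right.

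The genes whose log2 CPM followed each member most closely over the 18 libraries, group differences included, were different for each member, and are given with r as a description. For Prox1 they were A730046J19Rik (0.967), Neurod4 (0.955), a bHLH factor of bipolar and amacrine cell development, and Gabrr2 (0.948), a GABA receptor subunit known from bipolar cells. For Lhx1 they were Gm16551 (0.888), Ankrd43 (0.858) and Kalrn (0.849), the first being the gene model that spans Onecut1. Gm16551 had r = 0.545 with Onecut1 itself. Onecut1 was followed by St6gal2 (0.896), Nxph1 (0.892) and Adarb1 (0.879), and Onecut2 by Olfm4 (0.860), Prex2 (0.803) and Gm14326 (0.764). Calb1 was followed by Ak1 (0.921), Dpysl2 (0.893) and Car11 (0.890). Among 14471 genes the closest other member was Prox1, at rank 40 for Lhx1, and Lhx1 was at rank 191 for Prox1. All other pairs of members had ranks of 648 or more.

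Other genes known from horizontal cells were read from the same fits. Of 6 genes that specify the cells, 4 were analysed here and 2, Onecut3 and Sall3, had enough reads to be tested. Neither was called in any comparison, and Onecut3, with 2 to 16 reads per library, had an interaction of 1.26 ± 0.68 (edgeR, adjusted p = 0.192). Foxn4 and Ptf1a, which act in the progenitors of these cells, had at most 5 reads in a library. Of 6 paralogs of the members, 4 were tested and 0 were called by edgeR.

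Of 11 genes of horizontal cell structure and synapse, all 11 tested, 3 were called lower in Akita than in WT, where 7.64% of all genes were called. Megf10 and Megf11, receptors by which neighbouring horizontal cells keep their distance, fell by 0.98 ± 0.23 and 0.59 ± 0.15 on the log2 scale (edgeR, adjusted p = 0.0226 and 0.0252). Megf10 had 9.28 ± 1.51 CPM in WT (SD, n = 3) and 4.67 ± 0.46 in Akita (n = 4), and the libraries of the groups did not overlap for either gene. Slc32a1, the vesicular transporter of GABA, which amacrine cells also express, fell by 0.57 ± 0.17 (adjusted p = 0.0422), again without overlap. The median of the 11 genes was -0.49, and 0 of the 11 had a higher mean in Akita. Medians of 8 amacrine cell markers (-0.59, 0 of 8 higher) and 10 ganglion cell markers (-0.37, 0 of 10 higher) were also negative. Those of 7 rod markers (0.47) and 6 cone markers (0.25) were positive. The part of other retinal cells in the levels of these 11 genes was not tested. The calls were weak against the loss of a library: Megf10 and Megf11 each passed in 4 of 7 such fits (up to adjusted p = 0.1099 and 0.125) and Slc32a1 in 1 of 7 (up to 0.237), lost for all 3 without WT replicate 1 (differences -0.96, -0.55 and -0.41), WT replicate 2 (-0.88, -0.52 and -0.58) or Akita replicate 4 (-0.95, -0.54 and -0.48), and for Slc32a1 also without Akita replicates 1, 2 or 3 (-0.61, -0.59 and -0.61).

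With NACET in Akita mice, 2 of the 11 were called higher (9.65% of all genes called), namely Slc32a1 and the anion exchanger Slc4a3. Their differences were 0.57 ± 0.15 (edgeR adjusted p = 0.0269) and 0.61 ± 0.17 (edgeR adjusted p = 0.0319), neither with overlap between the groups. Slc32a1 had 16.4 ± 2.17 CPM in Akita and 24.4 ± 2.40 in Akita + NACET. Slc4a3 had 41.3 ± 8.65 and 62.9 ± 11.1 CPM. Slc32a1 was lost without Akita replicate 4 (0.48) or Akita + NACET replicates 2 or 5 (0.57 and 0.51), and Slc4a3 without Akita replicates 3 or 4 (0.52 and 0.53) or Akita + NACET replicates 2 or 5 (0.60 and 0.50). In the interaction 3 of the 11 passed, all positive, against 20.3% of all genes called and 10.1% called positive: Megf10 (1.30 ± 0.30, edgeR adjusted p = 0.00760), Slc4a3 (0.91 ± 0.24, 0.0143) and Slc32a1 (0.70 ± 0.21, 0.0272). The calls of Megf10 and Slc4a3 held in all 18 fits without a library, and that of Slc32a1 in 15, being lost without WT replicate 1 (0.53), WT replicate 2 (0.70) or Akita + NACET replicate 5 (0.64). With the outside-exon share as a covariate, none of these 8 calls remained, and the interactions were 0.42 for Megf10, 0.31 for Slc4a3 and 0.48 for Slc32a1. That fit cannot fully separate the share from the groups, between which it differed. The neurofilament genes Nefl, Nefm and Nefh and the connexin Gja10 were called in no comparison.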

How the data were processed

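Retinal poly(A) RNA of 18 libraries was profiled. Per the study's methods, the authors made TruSeq v2 libraries, read single ends on a NextSeq instrument, mapped them to mm9 with TopHat (2.1.0 in the submitters' processing notes) and obtained exon counts for each gene from HTSeq (0.11.2), strand ignored, leaving out ambiguous and multiply aligned reads. The deposited values are raw counts. The single entry without a gene name held 0.00544% of the gene counts on average and was left out, and 206 rRNA genes (0.977%) were removed as in the study, which left 34800 genes. Ambiguous reads were 1.18% of the reads on average.

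Groups were compared by edgeR 4.0.16 (R 4.3.3, quasi-likelihood F test) with TMM, the default filter (minimum count 10, total 15), robust dispersion and all 4 groups in the fit. Adjusted p-values follow Benjamini and Hochberg over the 16183 genes that passed, and genes at 0.05 or less were called. The biological coefficient of variation was 0.186. DESeq2 1.42.0, the study's tool, was an alternative. CPM divides by the counts of a library in the tested genes, scaled by its TMM factor. Correlations use log2 CPM with a prior count of 2 and 100000 permutations. Gene counts of 11495596 to 17814479 per library give low genes a large counting error. Replicates differed by more than counting noise in all 34 pairs within groups (chi-square per degree of freedom 4.54 to 50.7).

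The members and gene lists were chosen with earlier results of these data known. All members are named, with up to 3 called genes per direction and comparison from other horizontal cell lists, the 3 genes closest to each member (mean of at least 1 CPM), and counts for other cell types' markers. The test was tried on simulated data. Alternatives were other normalization, filters, samples in the fit, a replicate block, a covariate, rRNA genes kept and each library left out.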

Additional observations from a re-analysis of the deposited data

Results flagged for a closer look

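The response to NACET differed between the genotypes for 2 of the 5 genes by the interaction test of edgeR, which called 20.3% of all 16183 genes. The difference of log2 fold changes was 1.85 for Onecut1 (adjusted p = 0.00819, 0.00271 to 0.453 over its alternatives), which was called in 23 of 25 alternatives. The difference was 1.15 for Prox1 (adjusted p = 0.0373, 0.00838 to 0.904), called in 14 of 25. No library stood apart in any of the 15 sets of 4 to 6 libraries of a member in a group. The WT group, with 3 libraries, was not checked in this way. There Prox1 had 46.7, 64.8 and 46.2 CPM. Leaving out the highest of these, WT replicate 2, gave the highest adjusted p of the Prox1 interaction among the fits without a library (edgeR, 0.107).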

How the results depend on the processing

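Over the alternatives, 539 member differences were recomputed, of which 482 kept their direction and their side of the threshold. With the outside-exon share as a covariate, 0 members were called in Akita + NACET vs WT + NACET (Onecut1 0.82, adjusted p = 0.258) and 0 in the interaction (Onecut1 1.74, Prox1 0.25). The share differed between the groups and could not be fully separated from them in this fit. The covariate reversed Lhx1 in Akita vs WT (0.38), Akita + NACET vs Akita (-0.32), WT + NACET vs WT (0.16), Akita + NACET vs WT + NACET (-0.095) and the interaction (-0.48), and Onecut2 in WT + NACET vs WT (-0.023), none of them called. With no filter on low counts, 0 members were called in Akita + NACET vs WT + NACET (Onecut1 adjusted p = 0.0705) and 1 in the interaction (Prox1 0.0826), with more genes tested. With only the groups compared, 0 were called in Akita + NACET vs WT + NACET (Onecut1 0.88, adjusted p = 0.0591). DESeq2 called 1 in Akita + NACET vs Akita, 1 in WT + NACET vs WT and 2 in Akita + NACET vs WT + NACET. Onecut1 summed with Gm16551 turned in Akita + NACET vs WT (0.020) and lost both calls (0.66 and 0.83). Of the other horizontal cell genes, Megf11 (-0.60, adjusted p = 0.0685) and Slc32a1 (-0.58, 0.0981) lost their calls in Akita vs WT with only the groups compared. Where not given, the cause was not tested.

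Without a library, the members called were 0 to 1 in Akita + NACET vs Akita (1 without Akita + NACET replicate 1), in WT + NACET vs WT (1 without WT + NACET replicate 6) and in Akita + NACET vs WT + NACET, 0 in Akita vs WT and in Akita + NACET vs WT, and 1 to 2 in the interaction. The pairs of members that passed at 0.05 were 1 to 2 (2 without WT + NACET replicate 1 or 2), and r of Lhx1 and Prox1 was 0.77 to 0.87. Differences that changed sign ran, for Lhx1, from -0.32 to 0.065 in Akita vs WT, -0.070 to 0.35 in Akita + NACET vs Akita and -0.17 to 0.26 in Akita + NACET vs WT. For Onecut2 they ran from -0.12 to 0.23 in Akita vs WT, -0.0074 to 0.35 in Akita + NACET vs Akita, -0.13 to 0.13 in WT + NACET vs WT and -0.028 to 0.33 in the interaction. For Calb1 they ran from -0.094 to 0.055 in Akita + NACET vs WT and -0.016 to 0.17 in WT + NACET vs WT, and for Prox1 from -0.085 to 0.28 in Akita + NACET vs WT.

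The replicate numbers did not pair the libraries: deviations of same-numbered libraries had r of -0.33 to 0.34 over 22 pairs, 4 of them over 0.1, and 2 of 17 libraries correlated best with their own number. With the replicate block the count of called members was 1 in Akita + NACET vs WT + NACET and 2 in the interaction, as without it, and Calb1 in WT + NACET vs WT (-0.017), Lhx1 in Akita + NACET vs WT (-0.050) and Prox1 there (-0.078) changed sign. The block ended the calls of Slc32a1 in the interaction (0.70), Akita + NACET vs Akita (0.56) and Akita vs WT (-0.55), and of Slc4a3 in Akita + NACET vs Akita (0.60). The mean count minimum of 50 was not run for Lhx1 and Onecut1, which lie under it, nor for the counts of members. Depth limits Onecut1 most, at 5 to 25 reads per library.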
